A study of Rattus norvegicus with 8 samples.

Results

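The genes described here are the GDNF family ligands Gdnf, Artn (artemin) and Nrtn (neurturin), the receptor tyrosine kinase Ret, and the co-receptors Gfra1, Gfra2 and Gfra3. They were measured in dissociated cultures of rat dorsal root ganglia, the ganglia that hold the cell bodies of sensory neurons. All non-control probes whose RefSeq accession belongs to 1 of these 7 genes were taken. This gave 11 probes out of 30367 on the array, with 3 probes each for Ret and Gfra2 and 1 for each of the other genes. All 11 were well above background on all 8 arrays, so each entered the test, which covered 23584 probes and 12147 named genes.

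The cultures came from neonatal Wistar rats aged 0 to 5 days, with cells of males and females pooled. They were kept in serum-free medium with the antimitotic agent 5-fluoro-2'-deoxyuridine, and after 2 to 3 days in vitro a protein of human sequence was added at 100 ng/ml and left for 5 days. The protein carried the substitution P61S (3 arrays), both P61S and R100E (3 arrays), or no substitution (wild type, 2 arrays). No untreated culture was analysed here, and the medium and supplements were shared by all groups. Whether replicates were separate cultures or separate animals is not given in the labels, so p-values measure only the spread between these samples, which may be technical.

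GDNF family ligands bind a Gfra co-receptor that is anchored in the membrane by a lipid, and the pair then brings Ret molecules together so that their kinase domains are activated. Gdnf prefers Gfra1, neurturin prefers Gfra2 and artemin prefers Gfra3. In dorsal root ganglia, Ret marks non-peptidergic nociceptors and some low-threshold mechanoreceptors, while Gfra3 is found mainly in peptidergic nociceptors, and the ligands act as survival and growth factors for these neurons.

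The promoters of Ret and Nrtn are shown because these were the pair of genes whose signals moved most closely in opposite directions from array to array, with the spots marked as outliers left out. They are RefSeq promoter windows of the assembly GRCr8, from 250 bases before to 50 bases after the annotated start, printed 5′ to 3′ on the gene's strand, with every CG dinucleotide in capitals. Of the 7 genes, 6 had an entry, and Gfra2 had none. The annotated start was taken as given, and whether transcription begins there, for Nrtn or any other gene, was not tested.
Ret promoter, chr4:153040507-153040806, minus strand: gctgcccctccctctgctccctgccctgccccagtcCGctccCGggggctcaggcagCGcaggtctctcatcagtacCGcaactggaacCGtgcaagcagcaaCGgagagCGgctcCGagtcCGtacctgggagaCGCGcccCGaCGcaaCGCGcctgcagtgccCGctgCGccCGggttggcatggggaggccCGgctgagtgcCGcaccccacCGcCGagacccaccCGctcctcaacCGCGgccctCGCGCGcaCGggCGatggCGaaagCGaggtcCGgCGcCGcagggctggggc
Nrtn promoter, chr9:1670179-1670478, minus strand: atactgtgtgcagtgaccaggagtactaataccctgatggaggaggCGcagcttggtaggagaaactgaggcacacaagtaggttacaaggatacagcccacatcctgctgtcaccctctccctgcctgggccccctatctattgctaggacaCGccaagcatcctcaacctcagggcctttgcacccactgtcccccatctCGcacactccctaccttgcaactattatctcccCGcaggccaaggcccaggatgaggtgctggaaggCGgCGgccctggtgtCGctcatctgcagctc
The Ret window held 35 CG dinucleotides at a GC content of 74.0%, a CG count that 6.13% of 33469 RefSeq promoter windows of the same length reached. The Nrtn window held 7 CG dinucleotides at 58.0% GC, a count that 51.4% of the windows reached, and the median over all windows was 7. A CG was found in 94.5% of all windows. The Runx core TGTGGT, searched on both strands (ACCACA on the other), was in 0 of the 6 windows and in 17.3% of all windows, which says only that these letters are not there.

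Values below are log2 signals relative to the 75th percentile of the array, so 0 is the signal of a probe at that percentile. A probe's level is not set against that of another probe, since probes differ in how well they hybridise. The 75th percentile of the signal lay between 3267 and 5269 intensity units over the arrays, 78.7% to 88.8% of spots exceeded the local background by the scanner's criterion, and saturation affected 0 spots. All 8 arrays were on 1 slide and in 1 scan. Both wild type arrays were in slide column 4, which held no other group, so column and group cannot be told apart in comparisons with wild type. The correlation of wild type replicate 2 with the other 7 arrays over all tested probes was 0.983 to 0.989, whereas each of the other arrays reached at least 0.993 with one of the rest. Pan-neuronal markers such as Tubb3 and Uchl1 were present, with 13 of 15 tested and a median log2 level of 2.61 to 2.87 over the arrays, and so were fibroblast markers (9 of 9 tested, 3.82 to 3.97) and Schwann cell and satellite glia markers (14 of 15 tested, 0.04 to 0.50). These are bulk cultures, in which fewer cells of a type and less RNA per cell cannot be told apart.

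None of the 11 probes passed an adjusted p of 0.05 in any of the 3 comparisons (limma, all 8 arrays, Benjamini-Hochberg over all tested probes), nor did any of the 23584 probes, a background of 0%. At an unadjusted p under 0.05 the count was also 0 of 11 in each comparison. The background of that count was 4.01% of all tested probes for P61S/R100E minus P61S, 5.04% for P61S/R100E minus wild type and 2.07% for P61S minus wild type. In each comparison 4 of the 11 probes were higher and 7 lower, where 43.0%, 37.6% and 39.9% of all tested probes were higher in the same order. The sign turned under another scaling or background correction for Gdnf, Gfra1 and the bright Gfra2 probe in the first comparison, for 1 Ret probe in the second and for 1 Ret probe, Nrtn and Gfra3 in the third. The medians of the 11 differences were -0.03, -0.10 and -0.03 on the log2 scale in that order, beside -0.02, -0.06 and -0.04 over all tested probes. The comparisons share arrays and are not independent of each other.

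**Figure D1:**
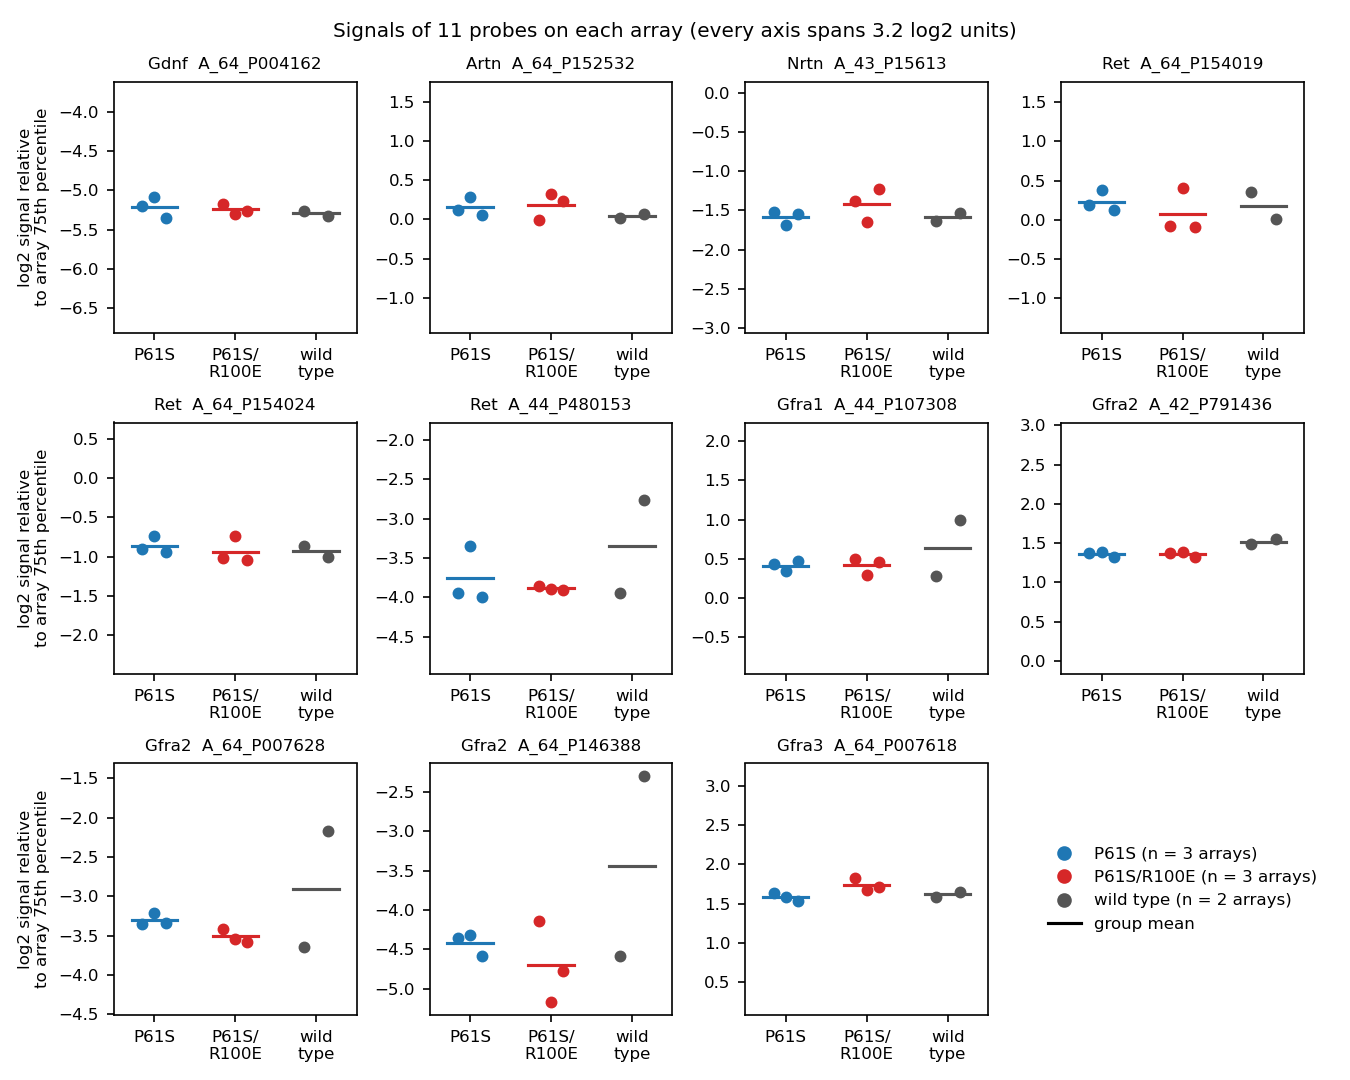
Log2 signal of each of the 11 probes on each of the 8 arrays, relative to the array's 75th percentile (y axis, centred separately for each probe but of the same span in all panels), by group (x axis); points are arrays and bars are group means. The wild type arrays lie far apart for the dim probes of Gfra2 and Ret and for Gfra1, where replicate 2 is the highest array, and the 3 P61S/R100E arrays lie above the other 5 for Gfra3.

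Among the ligands, Gdnf was dim and even. Its probe read -5.20, -5.08 and -5.35 on the P61S arrays, -5.17, -5.30 and -5.26 on the P61S/R100E arrays and -5.26 and -5.32 on the wild type arrays. The ranges of the 3 groups overlapped, and the 8 arrays spanned 0.27 in log2. Before scaling the signals were 81.9 to 141 intensity units. The difference of P61S/R100E from P61S was -0.03 (SE 0.0944, 95% interval -0.26 to 0.19). A fold change of the signal below 0.838 or above 1.14 lay outside the interval, which bounds the signal of a dim probe and not the transcript.

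Artn, the ligand of the Gfra3 complex, read 0.12, 0.29 and 0.06 with P61S, -0.01, 0.32 and 0.24 with P61S/R100E and 0.02 and 0.07 with wild type. The highest and the lowest array both belonged to P61S/R100E, and that group's range enclosed the others. The P61S/R100E mean of 0.19 ± 0.17 (SD, n = 3) differed from the P61S mean of 0.16 ± 0.12 (SD, n = 3) by 0.03 (95% interval -0.24 to 0.29) and from the wild type mean of 0.04 ± 0.04 (SD, n = 2) by 0.14 (-0.16 to 0.44).

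Nrtn, the ligand of the Gfra2 complex, read -1.52, -1.69 and -1.55 with P61S, -1.38, -1.65 and -1.23 with P61S/R100E and -1.63 and -1.53 with wild type. P61S/R100E replicates 1 and 3 were the highest of the 8 arrays, while replicate 2 of that group was the second lowest, so the groups overlapped. The difference of P61S/R100E from P61S was 0.17 (SE 0.124, 95% interval -0.13 to 0.46, limma adjusted p = 0.999). On P61S/R100E replicate 2, 1 of the probe's 2 spots was marked as an outlier by the scanner software and left out. That spot read 0.09 and the spot used -1.65, and with outlier spots kept the difference was 0.46.

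Ret is the signalling receptor shared by all these ligands. Probe A_64_P154019 read 0.19, 0.38 and 0.12 with P61S, -0.08, 0.41 and -0.09 with P61S/R100E and 0.35 and 0.01 with wild type. Probe A_64_P154024, which the array assigns to another Ret transcript, read -0.90, -0.74 and -0.94 with P61S, -1.02, -0.74 and -1.05 with P61S/R100E and -0.86 and -1.01 with wild type. On both probes the second replicates of P61S and of P61S/R100E were the highest arrays and P61S/R100E replicates 1 and 3 the lowest, with the groups overlapping. The arrays fell in the same order on both probes (Spearman's rho 1, Pearson's r 0.97 over 8 arrays, and 0.95 without the 2 arrays farthest from the median).

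The difference of P61S/R100E from P61S was -0.15 (SE 0.172, 95% interval -0.56 to 0.26) on the first Ret probe and -0.08 (SE 0.115, -0.35 to 0.20) on the second, with limma adjusted p = 0.999 for the first. The intervals allow a fold of 0.679 to 1.19 on the first probe. Against wild type the differences of P61S/R100E were -0.10 (95% interval -0.55 to 0.36) and 0.00 (-0.31 to 0.30). The spread within P61S/R100E on the first probe (SD 0.29, n = 3) was larger than any of its group differences, so no order of the 3 groups stood out from the spread.

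The third Ret probe, A_44_P480153, with 1 spot on the array, was dim. It read -3.94, -3.34 and -3.99 with P61S, -3.85, -3.89 and -3.91 with P61S/R100E and -3.94 and -2.76 with wild type. Wild type replicate 2 was the highest array and P61S replicate 2 the next. This probe did not follow the first Ret probe (r -0.09, rho -0.05 over 8 arrays, and r -0.15 without the 2 farthest arrays), although the array assigns both to the same transcript. Without wild type replicate 2 the sign turned, with r 0.37 against the first Ret probe and 0.52 against the second.

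Ret and Nrtn varied in opposite directions over the arrays. Over 8 arrays the brightest Ret probe and the Nrtn probe had r -0.89 and rho -0.90, with r -0.88 without the 2 arrays farthest from the median Ret signal and -0.94 without wild type replicate 2. The arrays share a slide and a scaling, and 21 such pairs among the 7 genes' brightest probes were computed, so this is a description of these arrays. The pair of arrays in slide column 2, P61S replicate 2 and P61S/R100E replicate 2, had the highest Ret signals (0.38 and 0.41) and the lowest Nrtn signals (-1.69 and -1.65). The pair in slide column 3, P61S/R100E replicates 1 and 3, had the lowest Ret signals (-0.08 and -0.09) and the highest Nrtn signals (-1.38 and -1.23). The -1.65 rests on the 1 spot that was not marked as an outlier. With both spots, a check added after the data were seen, that array had the highest Nrtn signal (-0.78), r was 0.05 and rho -0.26 over 8 arrays, and the within-column difference for Nrtn was 0.91. Over the 7 arrays without it r was -0.89. Within slide column 2, with the marked spot left out, the difference of P61S/R100E from P61S was 0.03 for Ret and 0.03 for Nrtn, from 1 array each. With slide column as a linear covariate over all arrays it was 0.03 for the first Ret probe, against -0.15 without it. The part of the slide position in this pattern was not tested beyond these values.

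**Figure D2:**
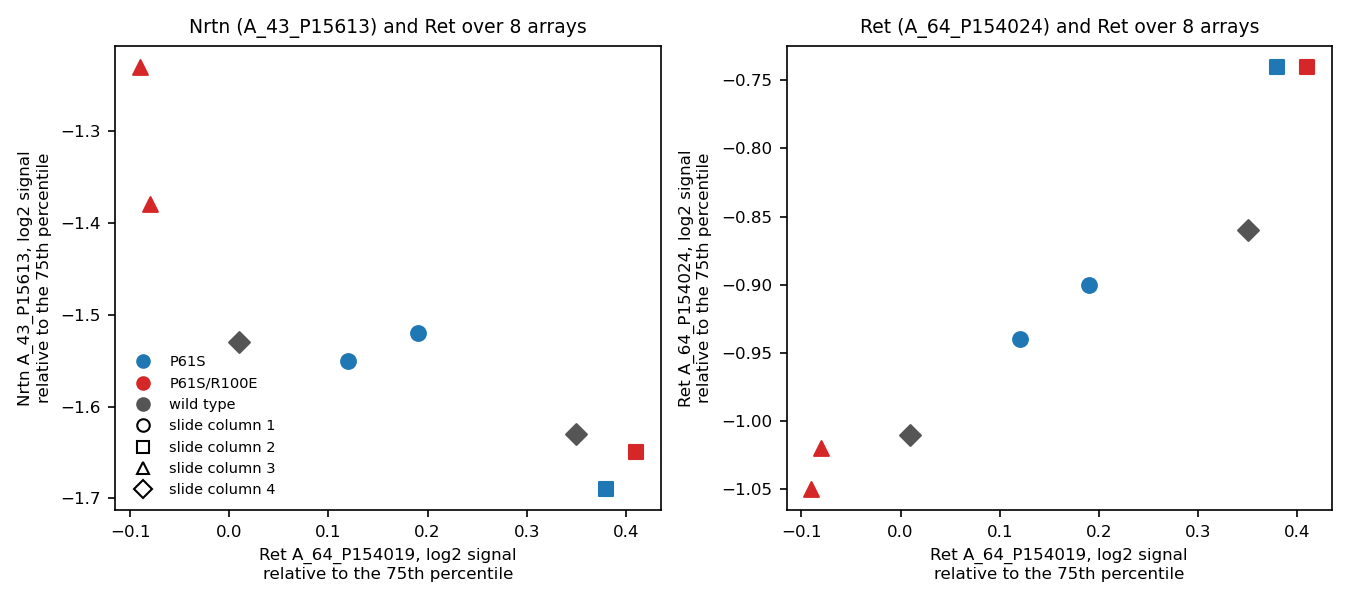
Log2 signals of the Nrtn probe (left panel, y axis) and the second Ret probe (right panel, y axis) against the brightest Ret probe (x axes), all relative to the array's 75th percentile, for the 8 arrays, with colours for groups and shapes for slide columns. In the left panel the 2 arrays of slide column 2 lie at the lower right, with Ret at 0.38 and 0.41 and Nrtn at -1.69 and -1.65, and r over the 8 arrays is -0.89 with 1 marked Nrtn spot of P61S/R100E replicate 2 left out, whereas in the right panel it is 0.97.

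Gfra1, the preferred co-receptor of Gdnf, read 0.43, 0.34 and 0.47 with P61S, 0.50, 0.29 and 0.46 with P61S/R100E and 0.28 and 0.99 with wild type. The lowest and the highest of all 8 arrays were the wild type pair, and the other arrays lay between them. The difference of P61S/R100E from P61S was 0.00 (SE 0.178, 95% interval -0.42 to 0.42). From wild type it was -0.22 (SE 0.199, -0.70 to 0.25), and without wild type replicate 2 it was 0.13.

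Gfra2, the co-receptor of neurturin, had 1 bright probe with 10 spots, A_42_P791436. It read 1.37, 1.39 and 1.33 with P61S, 1.37, 1.39 and 1.32 with P61S/R100E and 1.49 and 1.55 with wild type. Both wild type arrays lay above all 6 arrays of the substituted proteins, which spanned only 1.32 to 1.39. P61S/R100E minus wild type was -0.16 (fold 0.895, SE 0.079, 95% interval -0.35 to 0.03, limma adjusted p = 0.746) and P61S minus wild type was -0.15 (fold 0.899, SE 0.079, -0.34 to 0.03, limma adjusted p = 0.999). Neither passed the test. Between the substituted proteins the difference was -0.01 (95% interval -0.17 to 0.16), the narrowest interval among the 11 probes.

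The 10 spots of this probe had an SD of 0.05 to 0.09 within an array, beside an SD of 0.08 between the 8 array means. The pattern over the spots was alike on 7 arrays (r 0.72 to 0.97 between arrays) and turned on wild type replicate 2 (r -0.82 to -0.64 with the others). On all 8 arrays 1 of the 10 spots was marked as an outlier and left out of the probe's values. The SD within an array and these r include that spot, and its part in them was not tested. The direction of the wild type difference did not rest on that array, since P61S/R100E minus wild type was -0.13 without wild type replicate 2 and -0.19 without wild type replicate 1.

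The other Gfra2 probes were dim and split the wild type pair. Probe A_64_P007628 read -3.35, -3.21 and -3.34 with P61S, -3.41, -3.54 and -3.58 with P61S/R100E and -3.65 and -2.17 with wild type. Probe A_64_P146388, with 1 spot, read -4.36, -4.32 and -4.59 with P61S, -4.14, -5.17 and -4.78 with P61S/R100E and -4.58 and -2.30 with wild type. On both, wild type replicate 2 was the highest array by far, and on A_64_P007628 wild type replicate 1 was the lowest. Wild type replicate 2 exceeded replicate 1 by 1.47 and 2.28 on these probes, a gap that 1.80% and 0.382% of all tested probes exceeded.

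The comparisons of these probes with wild type turned on which wild type array was kept. On A_64_P007628, P61S/R100E minus wild type was -0.60 (SE 0.373, 95% interval -1.49 to 0.28), -1.34 without wild type replicate 1 (limma adjusted p = 0.0192) and 0.13 without wild type replicate 2. On A_64_P146388 it was -1.26 (SE 0.624, -2.74 to 0.22), -2.40 without wild type replicate 1 (limma adjusted p = 0.035) and -0.12 without wild type replicate 2. P61S minus wild type on A_64_P007628 was -0.39, -1.13 without wild type replicate 1 (limma adjusted p = 0.0305) and 0.34 without wild type replicate 2. In those fits 1 wild type array remained and was assumed to vary like the other groups.

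Wild type replicate 2 stood above replicate 1 for dim probes in general. The median gap was 0.44 over probes with a mean log2 signal of -4 or less and -0.02 over those above 1, and 17.1% and 0.429% of the probes in these classes had a gap over 1. Gdnf, the dimmest of the 11 probes, was an exception with a gap of -0.06. Gaps were 0.05 for Artn, 0.10 for Nrtn, 0.05 for Gfra3 and 0.06 for the bright Gfra2 probe, and -0.34 and -0.16 for the bright Ret probes. Gfra1, at 0.71, had the widest gap among the 7 genes' brightest probes, and 15% of all tested probes, most of them dimmer classes included, exceeded it. Over probes with a mean log2 signal from 0 to 1, the class of Gfra1, the median gap was 0. In that class 0.496% had a gap over 1, beside 7.23% of all tested probes. The share of the class with a gap over the 0.71 of Gfra1 was not counted.

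**Figure D3:**
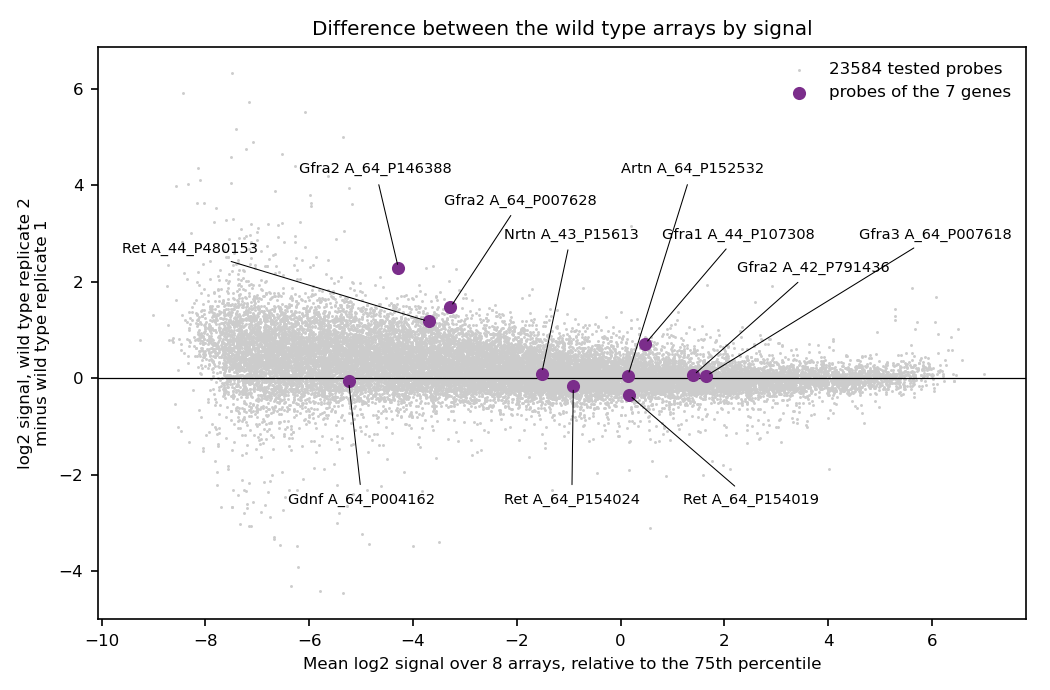
Difference in log2 signal between wild type replicate 2 and replicate 1 (y axis) against the mean log2 signal over the 8 arrays (x axis) for the 23584 tested probes (grey) and the 11 probes of the 7 genes (purple, labelled). The dim probes of Gfra2 (1.47 and 2.28) and Ret (1.18) lie high, whereas Gdnf lies at -0.06.

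Gfra3, the co-receptor of artemin, read 1.64, 1.59 and 1.54 with P61S, 1.83, 1.67 and 1.72 with P61S/R100E and 1.59 and 1.65 with wild type. All 3 P61S/R100E arrays were above all 5 other arrays, with 1.67 as the lowest against 1.65 as the highest of the rest. The difference from P61S was 0.15 (fold 1.11, SE 0.0801, 95% interval -0.04 to 0.34, limma adjusted p = 0.999) and that from wild type 0.12 (fold 1.09, SE 0.0896, -0.09 to 0.33, limma adjusted p = 0.75). P61S minus wild type was -0.03 (95% interval -0.24 to 0.18), and 0.03 with median centring. Within slide row 1 P61S/R100E was 0.21 above P61S and within slide row 2 0.16 above it, while in slide column 2, with 1 array each, the difference was 0.07.

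Groups did not overlap for 2 of the 11 probes in P61S/R100E minus P61S, Gfra3 (higher) and the dim Gfra2 probe A_64_P007628 (lower), beside 14.0% of all tested probes. They did not overlap for 2 of 11 in P61S/R100E minus wild type, Gfra3 (higher) and the bright Gfra2 probe (lower), beside 15.1%. In P61S minus wild type the bright Gfra2 probe (lower) was the 1 of 11, beside 16.6%. These shares are close to those of the whole array.

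**Figure D4:**
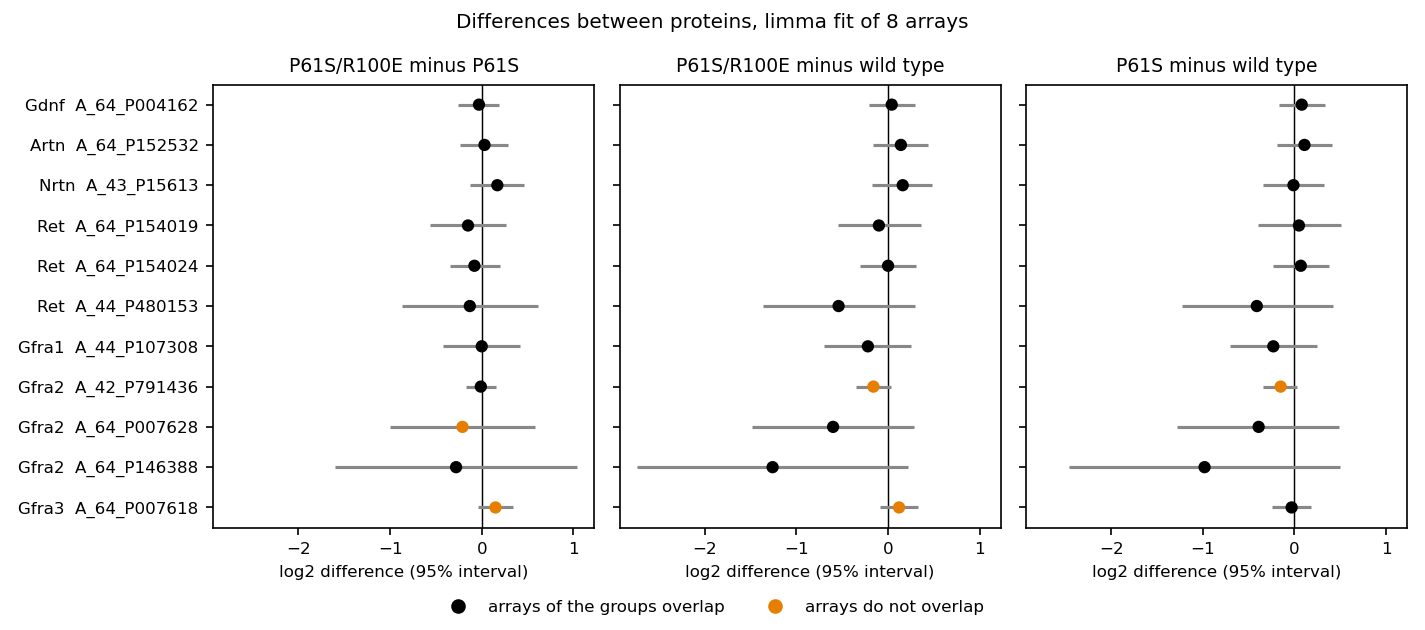
Difference between groups on the log2 scale (x axis) for the 11 probes (y axis) in the 3 comparisons, with points for the limma estimate and bars for its 95% interval. Every interval includes 0, and the intervals run from 0.17 on either side for the bright Gfra2 probe to 1.32 for Gfra2 A_64_P146388 in P61S/R100E minus P61S.

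The precision differed between the genes. Of the 11 probes, 6 had a standard error under the median of all tested probes, which was 0.14 for P61S/R100E minus P61S and 0.157 for the comparisons with wild type. The bright probes of Gfra2 and Gfra3 therefore carry the tightest bounds, and the dim probes of Gfra2 and Ret allow large changes in either direction.

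Genes whose signal followed these over the 8 arrays are given as a description, taken as the most extreme of 12131 other genes. Arrays share a slide, a scaling and the 3 groups. For Ret they were Ube2m (r 0.964) and Plcxd2 (0.946), with Sf3a3 the most opposed (-0.981). For Nrtn they were Nup85 (0.981) and Cbx2 (0.975), with Clec9a opposed (-0.977), all with the marked Nrtn spot left out. For Gfra3 they were Stat5a (0.941) and Atpaf2 (0.927), with Ppm1l opposed (-0.963).
For Gfra1 they were Dcaf17 (0.993) and Lrig2 (0.988), with Chst12 opposed (-0.979), and without wild type replicate 2 these values were 0.97, 0.92 and -0.83. For Gfra2 they were Usp31 (0.965) and Trip4 (0.964), with Ccndbp1 opposed (-0.960). For Artn they were Oaz3 (0.959) and Dnase1l1 (0.958), with Ddx52 opposed (-0.926), and for Gdnf they were Slc5a11 (0.937) and Hdc (0.920), with Tax1bp1 opposed (-0.913).

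The rest of the pathway was read from lists, with the brightest probe of each gene. Of the other family genes, Pspn (persephin, a further ligand) and Gdf15 (a distant relative that signals through Gfral) were tested, while Gfra4 and Gfral were not well above background on every array of any group. Pspn differed by 0.28 between P61S/R100E and P61S, by -0.11 between P61S/R100E and wild type and by -0.39 between P61S and wild type. Gdf15 differed by -0.38, 0.00 and 0.38 in the same order. For both genes every pair of groups overlapped.

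Of 11 co-receptors and regulators of Ret, 7 were tested and 0 passed the adjusted test in any comparison. Sort1, which encodes the sorting receptor sortilin, differed by -0.20 (SE 0.117) between P61S/R100E and P61S and by -0.27 (SE 0.131) between P61S/R100E and wild type, without overlap in either. The first was -0.12 without P61S/R100E replicate 3, and the second was -0.11 without wild type replicate 2 and -0.43 without wild type replicate 1. Cd2ap, an adaptor that links receptors to their uptake, differed by 0.24 (SE 0.156) between P61S/R100E and P61S and by -0.61 (SE 0.175) between P61S and wild type. The last value was -0.32 without wild type replicate 2.
Of 26 adaptors and signalling genes downstream of Ret, 24 were tested and 0 passed. Their median difference was 0.00 for P61S/R100E minus P61S, -0.16 for P61S/R100E minus wild type and -0.08 for P61S minus wild type. Dok4, a docking protein that binds phosphorylated Ret, differed by -0.13 and -0.34 between P61S/R100E and the P61S and wild type groups, and the latter was -0.10 without wild type replicate 2. Pik3r1, a regulatory subunit of phosphatidylinositol 3-kinase, differed by 0.32 (SE 0.188) between P61S/R100E and P61S, and by 0.17 without P61S/R100E replicate 1. Grb2, an adaptor that links receptors to Ras, differed by -0.09 (SE 0.0841) between P61S and wild type, where the groups did not overlap.

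Genes known to be induced by Gdnf through Ret in the developing kidney were the list with the most genes at an unadjusted p under 0.05 in both comparisons of P61S/R100E. Of 12 genes, 10 were tested and 0 passed the adjusted test. At an unadjusted p under 0.05, 3 of 10 were lower with P61S/R100E than with P61S, beside 2.07% of all tested probes, and 4 of 10 were lower than with wild type, beside 3.44%. The list's medians were -0.13, -0.19 and -0.05 in the 3 comparisons, beside -0.02, -0.06 and -0.04 over all tested probes. Several of these genes are also feedback genes of other receptor tyrosine kinases, among them those of neurotrophins, so the list is not particular to Ret.

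Cxcr4, a chemokine receptor, read -3.60, -3.45 and -3.55 with P61S, -3.91, -3.93 and -4.02 with P61S/R100E and -3.59 and -3.65 with wild type. Spry4, a feedback inhibitor of receptor tyrosine kinase signalling, read -0.30, -0.33 and -0.31 with P61S, -0.61, -0.57 and -0.77 with P61S/R100E and -0.40 and -0.36 with wild type. Etv4, an ETS transcription factor, read -4.68, -4.43 and -4.64 with P61S, -5.08, -5.54 and -5.57 with P61S/R100E and -4.84 and -3.87 with wild type. The Etv4 probe was dim, and wild type replicate 2, which was raised for dim probes in general, was its highest array. For each of the 3 genes all P61S/R100E arrays lay below all 5 other arrays, but they were named because groups did not overlap. Of the 10 tested genes, 4 were lower without overlap in each comparison of P61S/R100E, and 0 were higher without overlap. Without overlap in either direction were 14.0% of all tested probes against P61S and 15.1% against wild type. The share of all tested probes with P61S/R100E below all 5 other arrays was not counted.

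P61S/R100E minus P61S was -0.41 (SE 0.0793, limma adjusted p = 0.48) for Cxcr4, -0.33 (SE 0.082, limma adjusted p = 0.823) for Spry4 and -0.81 (SE 0.262, limma adjusted p = 0.999) for Etv4. P61S/R100E minus wild type was -0.33 for Cxcr4, -0.27 for Spry4 and -1.04 for Etv4, each with a limma adjusted p of 0.746, and -0.56 for Etv4 without wild type replicate 2. With slide column as a covariate P61S/R100E minus P61S was -0.48, -0.23 and -1.11 for these genes. For Cxcr4, P61S/R100E minus wild type was -0.09 with normexp background correction and quantile normalization.
Spry2, a relative of Spry4, differed by -0.58 between P61S/R100E and wild type (-0.37 without P61S/R100E replicate 3) and by -0.44 (SE 0.215) between P61S and wild type. Etv5, a close relative of Etv4, differed by -0.14 and -0.08 between P61S/R100E and the P61S and wild type groups, and Dusp6, a phosphatase of ERK, by 0.04 and -0.09.

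**Figure D5:**
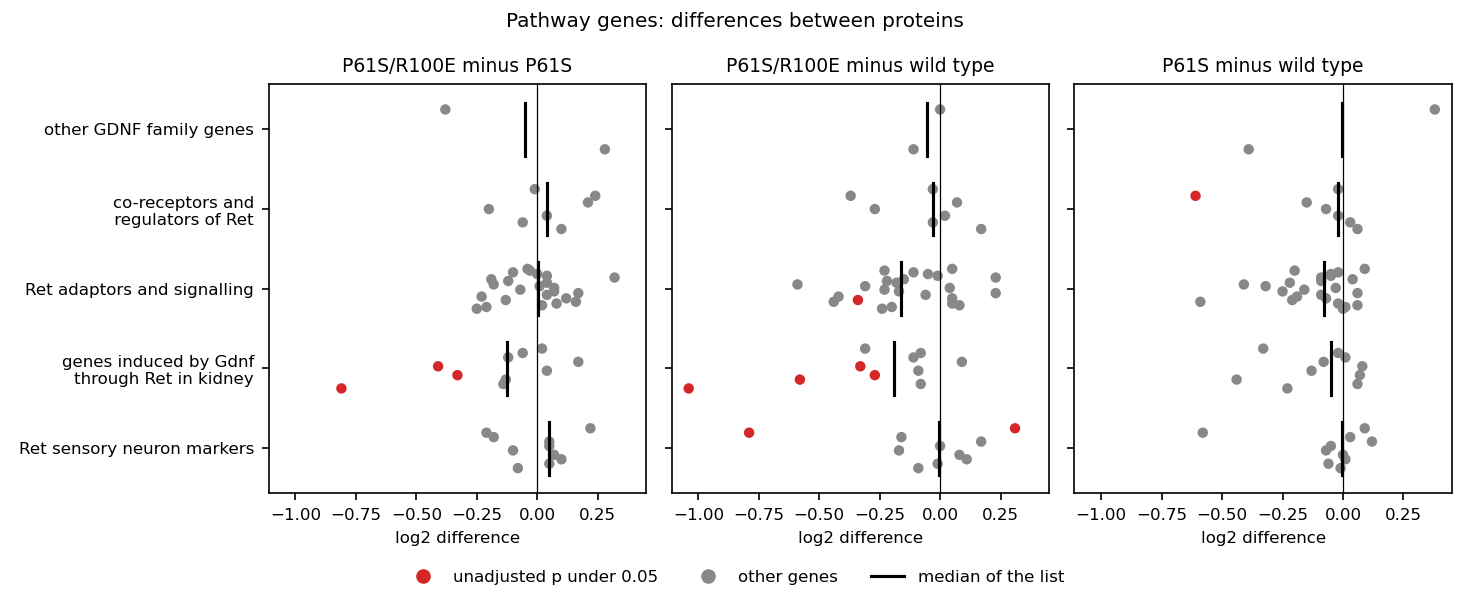
Difference between groups on the log2 scale (x axis, 1 panel per comparison) for each tested gene (point) of the pathway lists and the markers of Ret sensory neurons (y axis), with points at an unadjusted p under 0.05 marked and the list medians drawn. The kidney-induced genes reach from -0.81 to 0.17 in P61S/R100E minus P61S, with 3 of 10 marked, and 0 points pass the adjusted test.

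Markers of sensory neurons that use Ret were read in the same way, with 10 of 16 tested and 0 passing. Their median level was -0.61 to -0.47 over the 8 arrays, and Mrgprd, a defining receptor of non-peptidergic nociceptors, was not well above background on every array of any group. P2rx3, an ATP-gated channel of these neurons, differed by -0.08, -0.09 and -0.01 in the 3 comparisons. Runx1, the transcription factor that sets their identity, differed by 0.05, -0.01 and -0.06.
Scn11a, a sodium channel of nociceptors, differed by -0.10 (SE 0.0868) from P61S and -0.17 (SE 0.097) from wild type in P61S/R100E. The first was -0.06 without P61S replicate 2, and the second was -0.07 without wild type replicate 2 and -0.28 without wild type replicate 1. Th, which marks C-fibre low-threshold mechanoreceptors in the ganglion, differed by -0.18 (SE 0.125) from P61S. Slc17a8 and Tafa4, markers of the same mechanoreceptors, differed from wild type by -0.79 (SE 0.316) and 0.31 (SE 0.128), in opposite directions. The Slc17a8 probe was very dim, at -8.52 to -7.18 over the arrays, with wild type replicate 2 the highest. Without that array its difference was -0.56.
Among the markers of other cells, 0 of 13 pan-neuronal, 14 glial, 9 fibroblast, 12 macrophage and 8 endothelial and mural genes passed the adjusted test in any comparison. Medians in that order were 0.00, 0.00, 0.12, 0.04 and -0.14 for P61S/R100E minus P61S, -0.07, -0.07, -0.01, 0.12 and -0.04 for P61S/R100E minus wild type, and -0.10, -0.07, -0.11, 0.05 and 0.00 for P61S minus wild type.
At an unadjusted p under 0.05, 1 of 13 pan-neuronal markers was higher in P61S/R100E minus P61S, where 1.94% of all tested probes were. This was Tubb3, a neuronal tubulin, which read 3.92, 3.97 and 3.85 with P61S, 4.30, 4.24 and 4.24 with P61S/R100E and 4.04 and 4.13 with wild type. No pair of groups overlapped. P61S/R100E minus P61S was 0.35 for Tubb3 (SE 0.0757, limma adjusted p = 0.654). Lower there were Syt1 (-0.39), Elavl3 (-0.06), Nefm (-0.06), Isl1 (-0.05) and Prph (-0.02), and the rest were at 0.00 or above. In P61S/R100E minus wild type Syt1 (-0.77), Elavl3 (-0.30), Snap25 (-0.27), Prph (-0.19), Nefm (-0.14), Nefl (-0.10), Isl1 (-0.07) and Uchl1 (-0.02) were lower. The rest were higher. Wild type replicate 2 was the highest array for Syt1, Elavl3, Prph, Nefm, Nefl and Isl1.
Of the macrophage markers, 3 of 12 were higher at an unadjusted p under 0.05 in P61S/R100E minus wild type, beside 1.60% of all tested probes, and 1 of 12 in P61S minus wild type, beside 0.691%. In P61S/R100E minus wild type 5 of 12 were higher without overlap and 0 were lower without overlap, beside 15.1% of all tested probes without overlap in either direction. Ptprc, the leukocyte phosphatase CD45, differed there by 0.30 (SE 0.117), and by 0.14 without wild type replicate 2, and Lyz2, a lysozyme of myeloid cells, by 0.24 (SE 0.0988). Other markers of the list were lower there, namely Cx3cr1 (-0.22), Csf1r (-0.18), Cd14 (-0.17), Itgam (-0.14) and C1qb (-0.04). In P61S/R100E minus P61S the lower ones were Cd68 (-0.52), C1qc (-0.16), Cd14 (-0.09), C1qa (-0.05) and Csf1r (-0.03), and the rest were higher. In each of the 3 comparisons 0 glial, fibroblast or endothelial and mural markers reached an unadjusted p under 0.05. Tubb3 and Ptprc, picked after their values were seen, had higher values in P61S/R100E than in both other groups, without overlap. Other markers of their lists were lower in each of these comparisons. Lyz2 differed by only 0.05 between P61S/R100E and P61S, with overlap, and by 0.19 between P61S and wild type, without overlap. The P61S/R100E arrays also stood apart for Gfra3, and for Cxcr4, Spry4 and Etv4, which were named for their lack of overlap. The part of Tubb3 and the macrophage markers in those values was not tested.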

How the data were processed

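Cy3-labelled RNA of 8 samples was hybridised to 1-colour Agilent arrays, and samples below an RNA integrity number of 8.0 were discarded, per the labels' protocols. The authors deposited scanner exports whose spot intensity was background-subtracted by Feature Extraction 10.7.3.1 (protocol GE1_107_Sep09, design 028279, build rn4), per the file headers. They also deposited log2 values for 22018 probes, used as an alternative after scaling each column to its 75th percentile. The medians of its columns ran from 9.82 to 10.33, so the values were not scaled to a common median. Its correlations with the scanner signals of the same array were 0.999 to 0.9999, which scaling would not change.

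From the intensities, log2 signals minus the 75th percentile of 58717 non-control spots were computed. Spots that the software marked as outliers were dropped (kept where a probe had no unmarked spot) and the others averaged. Tested probes were those well above background throughout 1 or more groups. One limma fit (limma 3.58.1, R 4.3.3; 5 residual and 1.93 prior degrees of freedom) held 3 group means, with Benjamini-Hochberg adjustment at 0.05. The arrays' number limits the precision.

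Symbols came from the RefSeq accessions on the array, which 17998 of 30367 probes matched (15154 symbols). The fit was tested on simulated data. Figures used matplotlib 3.10.9 with pandas 2.3.3 and numpy 2.4.6 under Python 3.11.15. The alternatives were 12 changes of background correction, scaling, filter, covariate or model and the fits without each of the 8 arrays. The normexp alternative used the median foreground signal, since the exports analysed here hold no mean signal.

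The 7 genes and the 10 lists were chosen with earlier results of these data known. From each list, up to 2 genes per direction and comparison with the smallest p among those without overlap were named, and of the pathway and sensory neuron lists Pspn, Gdf15, Etv5, Dusp6, P2rx3 and Runx1 were named besides, after their values were seen. Of the names from the other marker lists Tubb3, Ptprc and Lyz2 are given, also chosen after their values were seen. The pan-neuronal and macrophage markers that were lower in P61S/R100E minus P61S or in P61S/R100E minus wild type are named besides. For each gene the 2 most alike and the 1 most opposed genes by r were named. The name of the protein added to the cultures is not reported here.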

Additional observations from a re-analysis of the deposited data

How the results depend on the processing

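Over 12 other settings, the 11 probes gave 396 values in the 3 comparisons. Of these 27 changed sign and 0 passed the test (lowest limma adjusted p = 0.656). Leaving out each array gave 264 values, of which 26 changed sign and 3 passed, the Gfra2 values without wild type replicate 1. Causes were not tested.

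Counts of all probes passing were 0 in each comparison. For P61S/R100E minus P61S the count was 1 with deposited values, 1 with the filter on all arrays, 6 with a variance trend and robust fit, and 0 to 3 without 1 array. For P61S/R100E minus wild type it was 1 with normexp, 1 with quantile normalization, 1 with deposited values, 1 with the filter on all arrays, 1 with the variance trend, and 0 to 1244 without 1 array (1244 without wild type replicate 1), with 0 to 2 of the 11 probes. For P61S minus wild type it was 1 with normexp, 1 with quantile normalization, and 0 to 250 without 1 array (250 without wild type replicate 1), with 0 to 1 of the 11 probes. With no residual spread of its own, a lone wild type array was assumed to vary like the other groups.

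With the replicate number as a block, 0 probes passed in each comparison, and Ret A_64_P154024 in P61S/R100E minus wild type was 0.04. Arrays of the same number had deviations from their group mean that correlated at -0.20 to 0.17, and those of different number at -0.17 to 0.20. The deviations of the wild type pair are mirror images, so these ranges are the same values with the sign turned. Between P61S and P61S/R100E arrays the values were 0.05, -0.02 and 0.01 for the same number and -0.04 to 0.03 for different numbers. With so few arrays per group, these correlations cannot show whether the numbers mark shared cultures.

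Signs turned as follows in P61S/R100E minus P61S. With normexp the values were 0.04 for Gdnf, -0.05 for Gfra1 and 0.01 for Slc17a8, and with quantile normalization 0.05, -0.01 and 0.00. With median centring Gfra2 A_42_P791436 was 0.02. With slide row as a block Gdnf was 0.01 and Gfra1 -0.06. With slide column as a covariate Ret A_64_P154019 was 0.03, Ret A_64_P154024 0.00, Gfra1 -0.05, Gfra2 A_42_P791436 0.00 and Lyz2 -0.01. In P61S/R100E minus wild type Ret A_64_P154024 was 0.04 with normexp, 0.07 with median centring and 0.00 with quantile normalization, deposited values or slide row as a block, and Grb2 was 0.02 with median centring.

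In P61S minus wild type normexp gave -0.02 for Ret A_64_P154019 and 0.04 for Pik3r1, quantile normalization gave 0.02 for Nrtn, and median centring gave 0.05 for Nrtn and 0.03 for Gfra3. Wild type lay only in slide column 4, so in comparisons with wild type a column covariate gives values only by extending a straight line over column number, and turned signs there say nothing beyond that. On this basis it gave 0.25 for Nrtn, -0.31, -0.08 and 0.43 for Ret A_64_P154019, A_64_P154024 and A_44_P480153, 0.18 for Gfra2 A_64_P146388, 0.12 for Gfra3, 0.39 for Pik3r1, -0.14 for Spry4, 0.37 for Etv4, 0.00 for Scn11a, 0.26 for Slc17a8 and -0.06 for Tafa4.

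Without 1 array, P61S/R100E minus P61S ran from -0.04 to 0.12 for Artn, -0.10 to 0.03 for Gdnf, -0.04 to 0.06 for Gfra1, -0.02 to 0.01 for Gfra2 A_42_P791436, -0.25 to 0.08 for Ret A_44_P480153, -0.40 to 0.08 for Slc17a8, -0.01 to 0.11 for Lyz2 and -0.27 to 0.07 for Spry2. P61S/R100E minus wild type ran from -0.58 to 0.13 for Gfra1, -1.34 to 0.13 for Gfra2 A_64_P007628, -2.40 to -0.12 for Gfra2 A_64_P146388, -1.13 to 0.06, -0.27 to 0.07 and -0.10 to 0.07 for Ret A_44_P480153, A_64_P154019 and A_64_P154024, -0.04 to 0.50 for Pik3r1 and -0.38 to 0.07 for Th. P61S minus wild type ran from -0.46 to 0.03 for Dok4, -0.72 to 0.26 for Etv4, -0.58 to 0.13 for Gfra1, -1.13 to 0.34 and -2.12 to 0.16 for Gfra2 A_64_P007628 and A_64_P146388, -0.06 to 0.04 for Nrtn, -0.36 to 0.18 for Pik3r1, -0.09 to 0.22 for Ptprc, -1.0 to 0.19, -0.12 to 0.22 and -0.01 to 0.15 for Ret A_44_P480153, A_64_P154019 and A_64_P154024, -0.18 to 0.03 for Scn11a, -0.23 to 0.09 for Sort1 and -0.20 to 0.25 for Th.

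With deposited values, as with outlier spots kept, Nrtn in P61S/R100E minus P61S was 0.46 in place of 0.17.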
